A study of Mus musculus with 3 samples.

Results

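Maf and Il10 are a regulator and its target in T cells that make the anti-inflammatory cytokine interleukin-10. Maf encodes c-Maf, a basic leucine zipper transcription factor of the large Maf family that activates Il10 and supports IL-21 production in helper T cells. Il10 encodes interleukin-10, a secreted cytokine that restrains macrophages, dendritic cells and effector T cells and is also made by Th17 cells. IL-6 and IL-21 signal through STAT3, which is phosphorylated, enters the nucleus and binds DNA, and both cytokines are known to raise Maf and Il10 in T cells. Conserved non-coding elements on either side of Il10 are known to act as enhancers in T cells and macrophages.

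The data were chromatin immunoprecipitation sequencing (ChIP-seq) libraries of mouse T cells, read here in a window of 90 kb on chromosome 8 set for Maf and a window of 110 kb on chromosome 1 set for Il10 (build mm9). Although both genes were chosen with earlier results of these data known, the windows are set by position and not by read counts. They held 4 H3K4me3 regions, 2 in each, of 15684 called in the genome, and 16 phospho-STAT3 sites of 26908. Of these sites, 3 lay in the Maf window and 13 in the Il10 window.

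There was 1 library each of H3K4me3 in STAT3-deficient cells (labelled Stat3fl/fl FoxP3-GFP, CD4-Cre), of H3K4me3 in wild-type cells (Stat3fl/fl FoxP3-GFP) and of phospho-STAT3 in those wild-type cells. The wild-type cells thus carried the floxed allele too, and both genotypes carried FoxP3-GFP. CD4-Cre deletes a floxed allele from the stage at which developing T cells express CD4. Naive CD4 T cells were activated through CD3 and CD28 for 72 h under Th17 conditions, meaning TGF-b (2.5 ng/ml) plus IL-6 (10 ng/ml) while IL-2, IL-4 and IFN-g were blocked. IL-6 was given again for 1 h before chromatin was taken. The phospho-STAT3 antibody recognised the form phosphorylated on the serine near its end (Ser727), a modification that is not limited to the IL-6 signal.

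H3K4me3, trimethylation of lysine 4 on histone H3, marks active and poised promoters. The STAT3-deficient H3K4me3 library had 12075763 reads on the chromosomes used, the wild-type H3K4me3 library 12281293 and the phospho-STAT3 library 10126263. Since each group was a single library, the genotypes could be set side by side but not tested, and there was no replicate check. Every interval is an exact (Clopper-Pearson) 95% interval that covers counting error only. In such bulk samples, fewer cells carrying a mark and less of the mark per cell cannot be told apart. No gene was placed on mm9 beyond the approximate span of Il10, so neither the Stat3 label nor the Th17 label was checked against a gene, and no input library was used here.

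The Maf window carried a clear H3K4me3 peak in both genotypes. Its wider region, from 118228200 to 118230799 on chromosome 8 (2600 bp), held 118 STAT3-deficient and 116 wild-type H3K4me3 reads. A narrower region beside it, from 118232000 to 118232599 (600 bp), held 31 STAT3-deficient and 41 wild-type reads. Both counted as marked, meaning at least 50 reads in both libraries together, as did 70.0% of all called regions. The wider region was among the better filled ones, since 16.9% of the 10971 marked regions held more reads and their median was 134. The narrow one was among the thinner, with 82.1% of marked regions holding more.

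Loss of STAT3 came with no H3K4me3 difference in the called Maf regions that passed the size rule of at least 2-fold with an interval excluding no change. Ratios are STAT3-deficient over wild-type on the log2 scale, after the median of all marked regions was set to 0. The wider Maf region had a ratio of -0.27 (-0.65 to 0.11), and 19.6% of marked regions had a lower one. By library totals instead, the same counts gave 0.05 (-0.33 to 0.43), so the direction depended on the scaling. The narrow region had a ratio of -0.70 (-1.42 to 0.01), and 3.45% of marked regions had a lower one. By library totals its ratio was -0.38 (-1.10 to 0.33). Neither interval lay wholly below 0, as 5.69% of marked regions did by the first scaling. With both regions summed, 149 STAT3-deficient and 157 wild-type reads gave -0.37 (-0.70 to -0.04), and -0.05 (-0.38 to 0.28) with library totals. Neither of these 2 regions passed the rule, which 1.16% of marked regions passed as lower and 1.01% as higher. The intervals still allow the narrow region a loss of more than 2-fold, so this depth does not show that the genotypes were alike there.

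**Figure D1:**
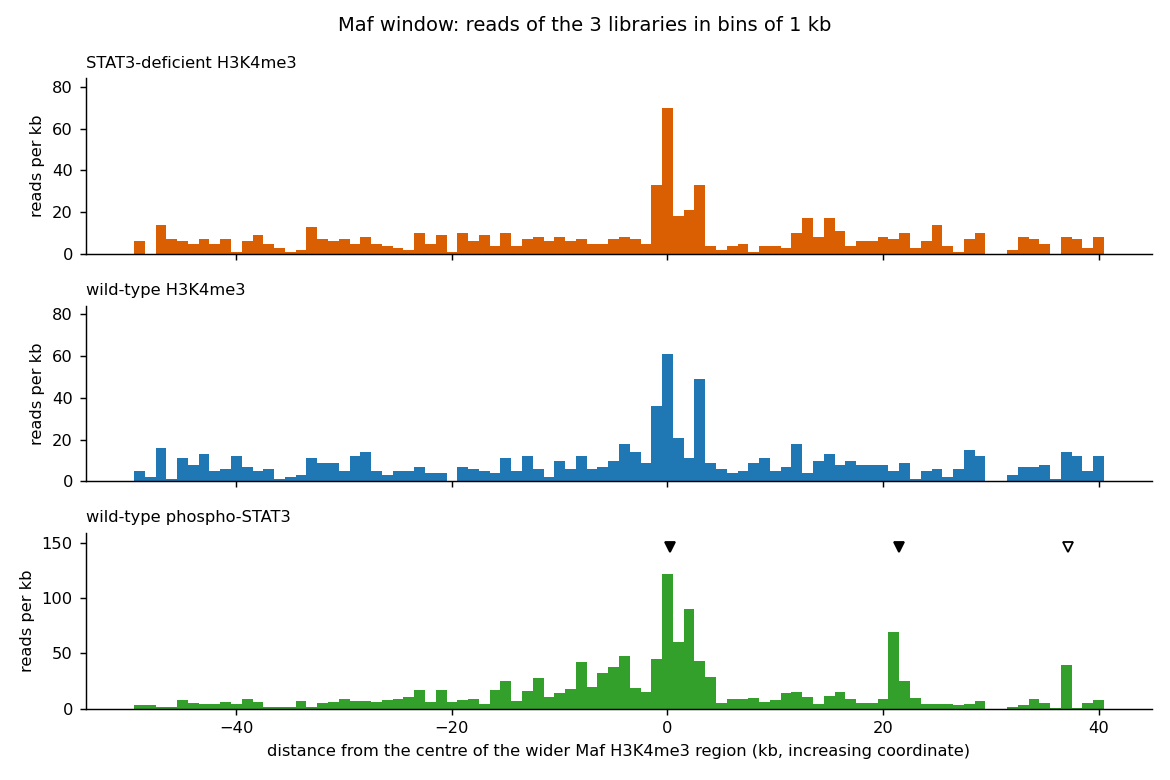
Reads per kb of the STAT3-deficient H3K4me3, wild-type H3K4me3 and wild-type phospho-STAT3 libraries across the Maf window (y axes), against distance in kb from the centre of the wider H3K4me3 region (x axis). Triangles mark called phospho-STAT3 sites, filled where strong. Both H3K4me3 tracks peak in the bin at the region's centre with 70 and 61 reads, and the phospho-STAT3 track has a broad shoulder on the side of decreasing coordinates.

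Phospho-STAT3 lay directly on the Maf H3K4me3 peak. Sites here are runs of 200 bp windows whose read count exceeds what the denser of the genome and the surrounding 10 kb would give, at a Poisson p under 1e-08. The excess is what the highest window holds beyond that expectation. Strong sites are those in the upper 25% by excess, with 26.1 reads or more. The site inside the wider region spanned 118229500 to 118229949 and held 63 phospho-STAT3 reads in its highest window, 33 on the plus and 30 on the minus strand, against 9.78 expected. Its excess of 53.2 reads was exceeded by 3.98% of all sites, while its fold over the surroundings, 6.44, was exceeded by 88.7% of them. The surrounding 10 kb were themselves dense in phospho-STAT3 reads.

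The same 200 bp at Maf were also the tallest of the H3K4me3 profile in the STAT3-deficient library. They held 27 STAT3-deficient and 18 wild-type H3K4me3 reads, where 4 and 4.72 were expected from the surrounding 10 kb. Run on the H3K4me3 libraries, the site caller found this place in both. Of all sites, 18.5% were found in at least one of these libraries, and the part of such enrichment in the phospho-STAT3 count was not tested. The whole wider region held 212 phospho-STAT3 reads, more than all but 1.02% of called regions, whose median was 30 reads. This rank takes no account of width, and the region spans 2600 bp against a median of 1200 bp over marked regions. Per kb it held 81.5 phospho-STAT3 reads. The 600 bp region beyond Il10 held nearly as many, 80.0 per kb, yet 30.5% of called regions exceeded its count. Of the 4 H3K4me3 regions in both windows, 2 held a phospho-STAT3 site, the wider Maf region and the one beyond Il10, against 35.6% of called regions.

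A second feature at Maf was phospho-STAT3 signal between both H3K4me3 regions. In the 1200 bp from 118230800 to 118231999, the phospho-STAT3 library held 105 reads, or 87.5 per kb, while the H3K4me3 libraries held 24 STAT3-deficient and 13 wild-type reads. No window there reached the threshold for a site, but at a looser Poisson p under 1e-06 a site appeared at its upper end, with 27 reads against 8.54 expected. The stretch was picked after its values were seen.

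**Figure D2:**
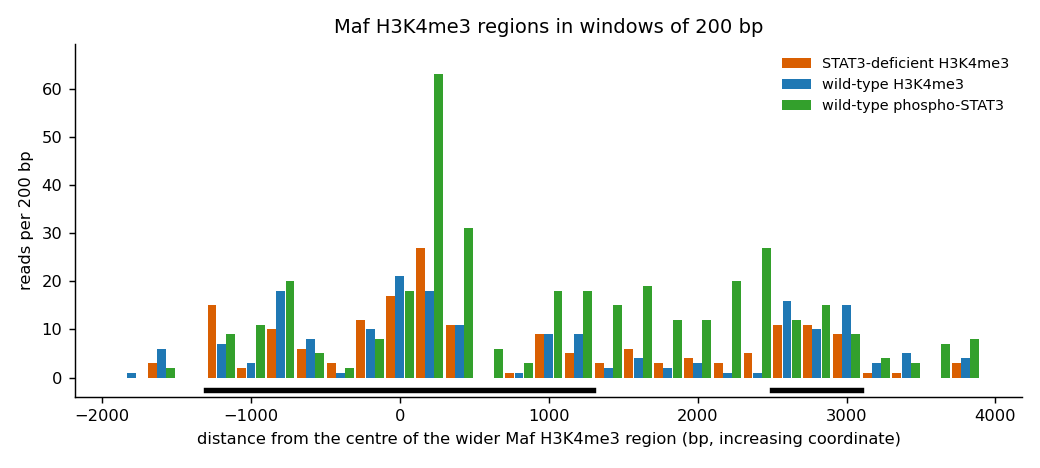
Reads per 200 bp around the Maf H3K4me3 regions (y axis) in the STAT3-deficient H3K4me3, wild-type H3K4me3 and wild-type phospho-STAT3 libraries, against distance in bp from the centre of the wider region (x axis). Black bars under the axis mark both called regions. The phospho-STAT3 maximum of 63 reads falls in the same window as 27 STAT3-deficient and 18 wild-type H3K4me3 reads, and the gap between the regions is filled by the phospho-STAT3 library.

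Beyond the peak, phospho-STAT3 reads thinned out over more than 10 kb on the side of decreasing coordinates, and within 10 kb on the other side. Outside the H3K4me3 regions and on the side of decreasing coordinates, the library held 27.6 reads per kb within 5 kb of the centre of the wider region. It held 26.6 per kb at 5 to 10 kb, 14 at 10 to 20 kb and 7.15 at 20 to 40 kb. On the side of increasing coordinates the values over the same distances were 45.8, 8.60, 9.80 and 10.1 reads per kb. The last of these includes both remaining sites. Maf is transcribed towards decreasing coordinates in the mouse, so the broad side is called downstream here and the other upstream, although the Maf start was not placed on mm9. The H3K4me3 libraries had 6.40 STAT3-deficient and 7.60 wild-type reads per kb at 5 to 10 kb on that side, close to their density further out. Within 5 kb on that side they held 22 STAT3-deficient and 46 wild-type reads, a log2 ratio (STAT3-deficient over wild-type) of -1.36 (-2.16 to -0.60), or -1.04 (-1.84 to -0.28) by library totals. The stretch at 5 to 10 kb upstream held 16 STAT3-deficient and 32 wild-type reads, a ratio of -1.30 (-2.26 to -0.39), or -0.98 (-1.94 to -0.07) by library totals. These were the lowest of the 8 stretches, were singled out after their values were seen, and were not compared with the same distances at other genes. The other 6 had ratios of -0.22 to 0.09 by library totals, each with an interval that includes 0. By marked regions, 2 of these 6 had an interval below 0, with -0.48 (-0.86 to -0.10) at 20 to 40 kb downstream and -0.51 (-0.91 to -0.12) at 20 to 40 kb upstream. Both intervals include -0.33, the median by this scaling of windows of 90 kb over the genome. The share of stretches of the same length with an interval below 0 was not determined.

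The other Maf sites were single peaks away from H3K4me3. The site from 118250750 to 118251149, 21.45 kb upstream of the centre of the wider region, held 57 phospho-STAT3 reads in its highest window against 2.88 expected. This 19.8-fold enrichment was exceeded by 3.16% of all sites, and its excess of 54.1 reads nearly equalled that of the site on the peak. There were 4 STAT3-deficient and 2 wild-type H3K4me3 reads in the same 200 bp. The site from 118266450 to 118266849, at 37.15 kb, was weaker, with 21 reads against 1.60 expected and an excess of 19.4, close to the median of 18.8 over all sites. It was not strong.

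H3K4me3 near the Maf sites was then compared by genotype, counting reads within 1 kb of each site. At the site on the peak there were 98 STAT3-deficient and 100 wild-type reads, a log2 ratio of -0.33 (-0.74 to 0.09) by marked regions. By library totals it was -0.0048 (-0.42 to 0.41). At the strong upstream site there were 17 STAT3-deficient and 13 wild-type reads, a ratio of 0.09 (-1.04 to 1.25) by marked regions. Library totals gave 0.41 (-0.72 to 1.57) there. At the weakest site there were 9 STAT3-deficient and 20 wild-type reads, a ratio of -1.45 (-2.77 to -0.25) by marked regions. This last value met the size rule, as did 4.97% of all sites as lower and 0.535% as higher. The median over all sites was -0.19 by marked regions. By library totals the ratio of the weakest site was -1.13 (-2.45 to 0.07), an interval that includes 0. Counted within 500 bp it was -1.19 (-2.75 to 0.24) by marked regions, an interval that includes 0 with fewer reads. Within 2 kb it was -1.09 (-1.99 to -0.24) by marked regions and still met the rule. The call thus rested on the scaling, and it was lost at the shorter distance but not at the longer one. Over all 3 Maf sites together, 124 STAT3-deficient and 133 wild-type reads gave -0.40 (-0.76 to -0.03) by marked regions. By library totals the same counts gave -0.08 (-0.44 to 0.29), an interval that includes 0.

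The Il10 window held many phospho-STAT3 sites but no marked H3K4me3 region. The region at the start of Il10, from 132916400 to 132916799 on chromosome 1, held 14 STAT3-deficient and 12 wild-type H3K4me3 reads. It fell short of the 50 reads of a marked region, as did 30.0% of called regions, and 96.4% of called regions held more reads. The other region, from 132986200 to 132986799, lay near the far end of the window, around a site 64.95 kb past the end of Il10, and held 21 STAT3-deficient and 24 wild-type reads. It was not marked either. In the gene table of another build (GRCm38.p6), the protein-coding neighbours of Maf are Wwox and Dynlrb2, and those of Il10 are Il19, which encodes a cytokine of the same family, and Mapkapk2, which encodes a stress-activated kinase. Where they fall on mm9 was not determined, so sites are placed by distance only and not assigned to a gene.

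H3K4me3 at Il10 could not be separated by genotype at this depth. The region at the start had a log2 ratio of -0.07 (-1.29 to 1.17) when scaled by marked regions, and by library totals 0.25 (-0.97 to 1.49). The region beyond the gene had -0.49 (-1.41 to 0.42) and -0.17 (-1.09 to 0.74). Over the 5.1 kb taken for the gene, 59 STAT3-deficient and 58 wild-type reads gave -0.27 (-0.82 to 0.28) and 0.05 (-0.50 to 0.60). Each of these intervals includes no difference, and those of both regions also allow a change of 2-fold in at least one direction. Within 1 kb of the start there were 22 STAT3-deficient and 30 wild-type H3K4me3 reads, that is 11.0 and 15.0 per kb. For comparison, the Il10 window outside its regions held 8.54 STAT3-deficient and 8.98 wild-type reads per kb.

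**Figure D3:**
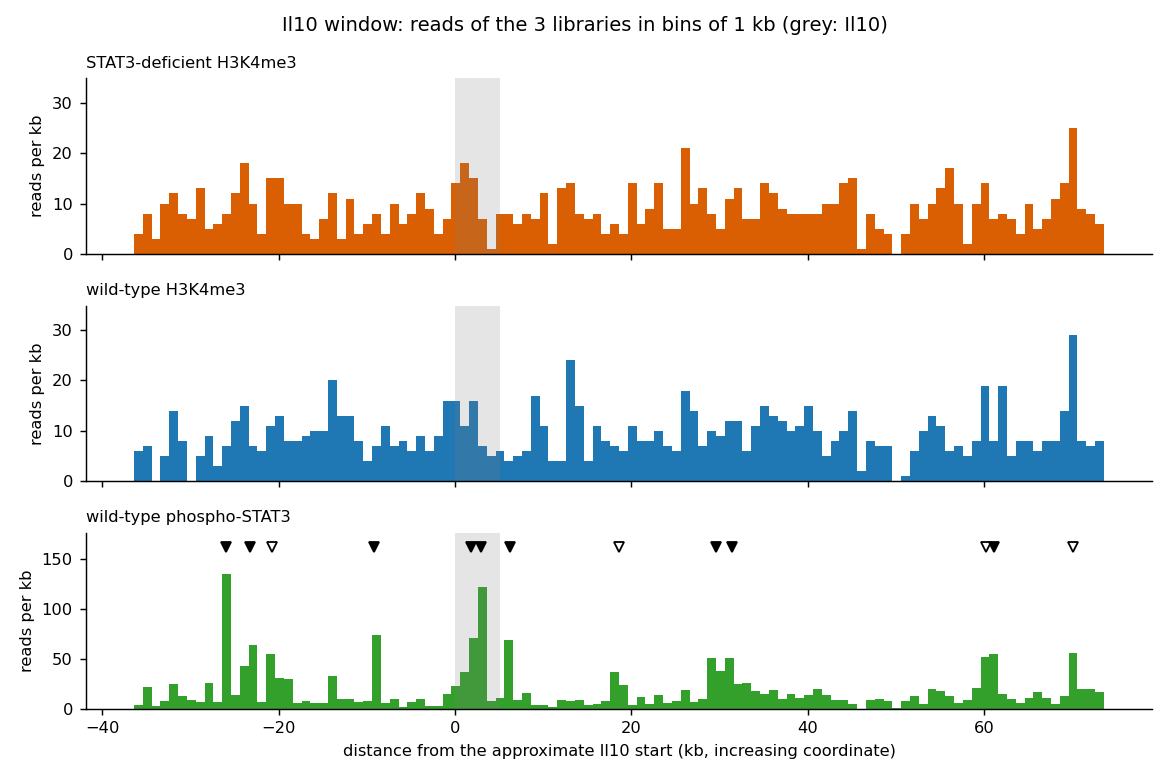
Reads per kb of the STAT3-deficient H3K4me3, wild-type H3K4me3 and wild-type phospho-STAT3 libraries across the Il10 window (y axes), against distance in kb from the approximate start of Il10 (x axis). The grey band marks Il10, and triangles mark called phospho-STAT3 sites, filled where strong. The phospho-STAT3 track shows separate peaks up to 135 reads per kb, while the H3K4me3 tracks reach at most 25 STAT3-deficient and 29 wild-type reads per kb.

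Phospho-STAT3 sites were packed far more densely around Il10 than in most of the genome. The window of 110 kb held 13 sites. Of 21839 windows of that length laid over the genome, 0.0641% held at least as many, which is 14 windows, and the median window held 0. Windows with at least 9 strong sites made up 0.0549%. For Maf, 15.6% of 26597 windows of 90 kb held at least 3 sites. Strong sites numbered 9 of 13 at Il10 and 2 of 3 at Maf, beside 25% of all sites. The excess of the Il10 sites ranged between 16 and 69.4 reads with a median of 32.0, against 18.8 over all sites. Their fold over the surroundings had a median of 7.12, below the 10.0 of all sites.

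The site with the largest excess in either window lay upstream of Il10, since Il10 is transcribed towards increasing coordinates. It spanned 132890200 to 132890749, 25.95 kb before the start, and held 76 reads in its highest window, 41 on the plus and 35 on the minus strand, against 6.60 expected. Its excess of 69.4 reads was exceeded by 1.90% of all sites. Another pair of sites followed within 5.25 kb. The one from 132892900 to 132893299 held 41 reads against 8.24 expected and was strong. The one from 132895550 to 132895799 held 26 reads against 5.48 expected and was not.

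A single strong site stood 9.15 kb before the start of Il10. It spanned 132907000 to 132907449 and held 57 reads, 24 on the plus and 33 on the minus strand, against 3.36 expected. This 17-fold enrichment was the highest of the Il10 sites, exceeded by 7.01% of all sites. The H3K4me3 libraries held 2 STAT3-deficient reads and 1 wild-type read in the same 200 bp, beside 1.54 and 2 expected from their surroundings.

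Within and just past Il10 lay 3 strong sites in 4.4 kb. The first, from 132918150 to 132918449, was 1.85 kb past the start and held 36 reads against 7.30 expected. The second, from 132919100 to 132919599, was 2.9 kb past the start and held 63 reads against 7.40, an excess of 55.6 reads that 3.49% of all sites exceeded. The third, from 132922450 to 132922799, was 1.15 kb past the end of the gene and held 47 reads against 6.60. Over the gene span, the phospho-STAT3 library held 51.4 reads per kb, against 19.0 per kb over the whole window and 3.83 per kb over the genome. The start itself held no called site, and within 1 kb of it there were 43 phospho-STAT3 reads, or 21.5 per kb.

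On the far side of the gene, 6 further sites reached out to 70.05 kb past the start. The strongest of them, from 132945750 to 132946199, held 45 reads against 5.06 expected, 29.6 kb past the start. The site from 132977300 to 132977699 held 36 reads against 3.96, an excess of 32.0 reads, and had a weaker companion 0.9 kb before it. The site from 132986350 to 132986699 was the only one of the Il10 window inside an H3K4me3 region, and held 29 reads against 4.42 expected. Its highest window also had the most H3K4me3 reads of any Il10 site, 7 STAT3-deficient and 8 wild-type. The remaining sites had an excess between 16 and 27.7 reads, and 1 of them was strong.

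**Figure D4:**
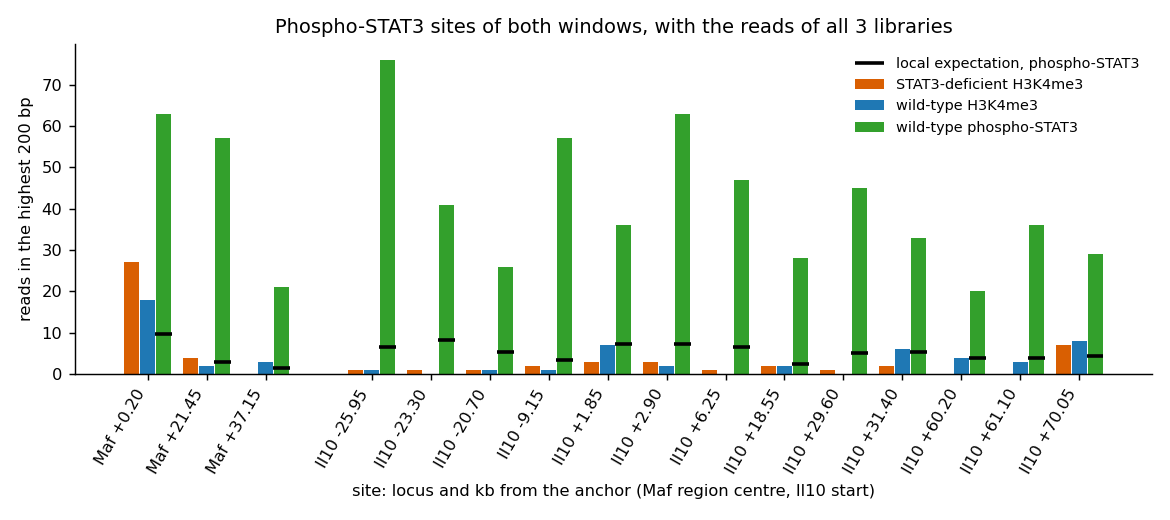
Reads in the highest 200 bp window of each phospho-STAT3 site (y axis), with STAT3-deficient H3K4me3, wild-type H3K4me3 and wild-type phospho-STAT3 reads as bars and the local phospho-STAT3 expectation as a black line. Sites run by position (x axis), labelled by kb from the centre of the wider Maf region or from the start of Il10. The H3K4me3 bars of the Il10 sites reach at most 8 reads, against 20 to 76 phospho-STAT3 reads, while at the first Maf site they reach 27.

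Of the 12 gaps between neighbouring Il10 sites, 6 (50%) were under 4 kb, a limit chosen after the values were seen, against 13.5% of gaps over the genome. Short gaps follow from so many sites in one window, and whether the sites lay closer than that density gives was not tested. Joined at that limit, the sites fell into 7 sets, of which 3 were single sites. The gap between neighbours had a median of 6.15 kb at Il10, against 23.2 kb over all sites. At Maf, the 2 gaps were 21.25 and 15.7 kb. The shortest gap at Il10 was 0.9 kb and the longest, 28.8 kb, separated the sites around 31.4 and 60.2 kb past the start. From the first to the last site the window's series spanned 96.0 kb.

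Apart from the site at 70.05 kb, which lay in the tallest H3K4me3 bin of the window, the Il10 sites lay outside called H3K4me3 regions. None of the 13 was found by the site caller in either H3K4me3 library, beside 18.5% of all sites. Summed over the 13 highest windows, the STAT3-deficient library held 24 reads where 23.6 were expected from its own surroundings, and the wild-type library held 35 where 24.5 were expected. In the phospho-STAT3 library the same windows summed to 537 reads. Of the 13 sites, 1 lay inside an H3K4me3 region, against 23.3% of all sites, and the next nearest was 1.45 kb from one. Plus-strand reads lay ahead of minus-strand reads at every site of both windows, by a median of 111 bp at Il10 and 103 bp at Maf. Reads were picked by their position after each strand was moved 75 bp, which nearly fixes this order beforehand. It is therefore no check of the sites.

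H3K4me3 within 1 kb of the Il10 sites did not differ by genotype beyond counting error at any of the 13. Within 2 kb it did at 2 of them, by marked regions only. The ratio was below 0 at 10 of 13 sites, against 65.5% of all sites, and by library totals at 7 of 13. No interval excluded 0 under either scaling, against 8.73% of all sites by marked regions. The highest ratio was at the strongest site, where 22 STAT3-deficient and 12 wild-type reads gave 0.58 (-0.50 to 1.73). That direction turned with the distance, to -0.10 (-1.76 to 1.59) within 500 bp and -0.26 (-0.94 to 0.42) within 2 kb. Within 2 kb and by marked regions, the ratio was -0.72 (-1.40 to -0.06) at the site 60.2 kb past the start. At the one 61.1 kb past it, whose flank overlaps, it was -0.81 (-1.46 to -0.18). Library totals raise every ratio by 0.32, which takes the upper ends of both intervals above 0. The share of all sites with such an interval within 2 kb was not determined. At the single site 9.15 kb before the start, 13 STAT3-deficient and 15 wild-type reads gave -0.50 (-1.69 to 0.67). Over all 13 sites together, with overlaps counted once, 251 STAT3-deficient and 243 wild-type reads gave -0.25 (-0.51 to 0.01). Library totals put the same counts at 0.07 (-0.19 to 0.33).

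**Figure D5:**
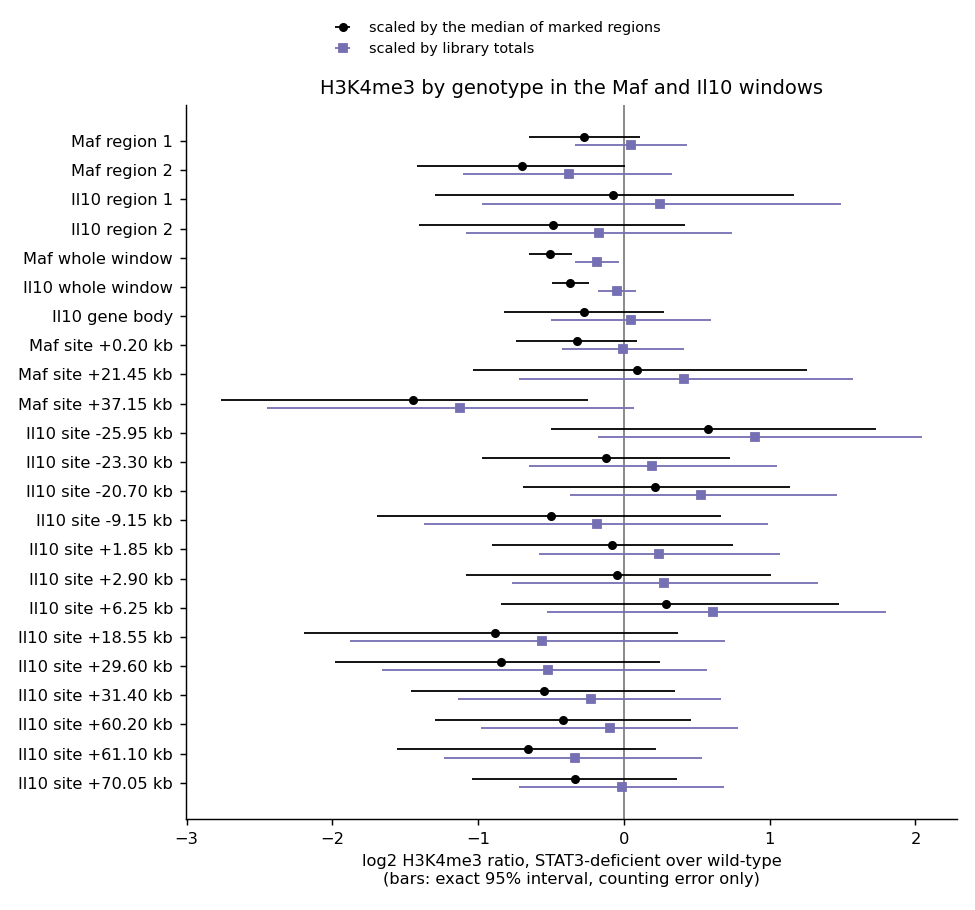
Log2 ratio of H3K4me3 reads, STAT3-deficient over wild-type (x axis), for the called regions, whole windows, the Il10 gene span and 1 kb around each phospho-STAT3 site (rows). Circles show scaling by the median of marked regions and squares scaling by library totals, with exact 95% intervals for counting error. The only circles with an interval off 0 are those of both whole windows and of the last Maf site.

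Over the whole windows, most of whose reads lay outside H3K4me3 regions, the Maf count was lower in STAT3-deficient cells beyond counting error under both scalings and the Il10 count under one. The Maf window held 690 STAT3-deficient and 797 wild-type reads, a log2 ratio of -0.50 (-0.65 to -0.36), which was -0.18 (-0.33 to -0.03) with library totals. The Il10 window held 966 STAT3-deficient and 1015 wild-type reads, with ratios of -0.37 (-0.50 to -0.24) and -0.05 (-0.18 to 0.08). The median window of the genome lay at -0.33 by marked regions for both lengths, so most of each value was shared by windows across the genome. Of those windows, 8.34% had a ratio below that of Maf and 37.0% one below that of Il10. By library totals the interval lay below 0 in 6% of windows of the length of Maf and in 6.63% of those of the length of Il10. Outside the H3K4me3 regions of the Maf window, 541 STAT3-deficient and 640 wild-type reads gave -0.22 (-0.39 to -0.05) by library totals. Inside them, 149 STAT3-deficient and 157 wild-type reads gave -0.05 (-0.38 to 0.28) by library totals, an interval that includes 0.

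Both windows held more reads than the median window in all 3 libraries, most so for phospho-STAT3. The Maf window held 14.4 phospho-STAT3 reads per kb and the Il10 window 19.0, against a median of 3.24 and 3.25 per kb in windows of the same length. Of those windows, 1.24% held as many phospho-STAT3 reads as Maf and 0.334% as many as Il10. Away from regions and from 1 kb around each site, the densities were still 11.0 per kb at Maf and 10.7 at Il10. For STAT3-deficient H3K4me3, 16.6% of windows held as many reads as Maf and 8.53% as many as Il10. For wild-type H3K4me3, 9.48% of windows held as many reads as Maf and 7.22% as many as Il10.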

How the data were processed

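The deposited files hold aligned reads, 1 line each, with position, strand and a score that is 0 throughout, and no value per region. The build was mm9 and SICER was used, per the submitters' processing notes. No source used here names the aligner or any version. Reads span 25 bp, and no position and strand held more than 1 read. Libraries had 18 PCR cycles and fragments of about 250 bp with adapters, per the labels' protocols.

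Reads were moved 75 bp towards the fragment centre. The pooled H3K4me3 libraries gave the regions (200 bp windows with at least 12 reads, gaps up to 600 bp joined, at least 2 windows). Phospho-STAT3 windows moved in steps of 50 bp and needed at least 10 reads, with reads on both strands, and 0.8 of the genome was taken as mappable. Windows of equal length needed at least 1 read per kb in every library. Every region, and the 8 Il10 sites of largest excess plus any inside a region, were named by rule. The size rule and the site caller were run on simulated data. Simulated sites were planted far apart on an even background, so that run cannot speak to closely spaced sites or dense surroundings. The members and lists were chosen with earlier results of these data known. The list of related pathway genes was not run, as no mm9 annotation was used. Promoter sequences of Maf and Il10 are not shown. Python 3.11.15, numpy 2.4.6, scipy 1.17.1, pandas 2.3.3 and matplotlib 3.10.9 were used. As alternatives, the scaling, read shift, thresholds, flank and library used for calling were changed.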

Additional observations from a re-analysis of the deposited data

How the results depend on the processing

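Each group had 1 library, so none could be left out. No paired analysis was possible because each group has a single library. Under library totals, the ratio of the whole Maf window was -0.18 and that of the whole Il10 window -0.047, both outside their intervals by marked regions, because the scaling moves every ratio by 0.32. At a Poisson p under 1e-12 the Il10 window held 11 sites, 5 of them strong, with a median spacing of 9.98 kb. The stricter threshold raises the excess that counts as strong. Without sites also called in an H3K4me3 library, 1 strong Maf site was left. Of 53 values of the main results under alternatives, 48 stayed within their interval or within 1.5 times, with 11 to 15 sites at Il10 and 2 to 4 at Maf. Settings under which a region was not called gave no value and are not among the 53. The sign of the wider Maf region turned under library totals, and that of the Il10 start under library totals and with the background of the window subtracted (0.04). With no read shift both Maf regions joined into 1 with a ratio of -0.30 (-0.62 to 0.01), which is counted among the 53 once for each of them. The narrow Maf region had an interval just below 0 when called on the STAT3-deficient library alone (-0.77, -1.49 to -0.06) and at a minimum of 16 reads (-0.71, -1.43 to -0.0044). The Il10 start was not called as a region on either library alone, at that minimum or without the shift, and the region beyond the gene was not called on the STAT3-deficient library alone. Of the ratios at the 16 sites, 5 changed sign with 500 bp in place of 1 kb on either side and 2 with 2 kb. With 500 bp, the ratio at the site 9.15 kb before Il10 turned to 1.70 (-0.62 to 4.98). With windows laid in another frame, chosen after seeing the data, 0.0458% held as many sites as Il10 and 15.7% as many as Maf. Counting sites within 1 kb as 1, also chosen then, left 12 at Il10.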

Other observations

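Reads with at least 1 mismatch to the reference, which no comparison above uses, made up 2.61% of STAT3-deficient H3K4me3, 3.14% of wild-type H3K4me3 and 4.02% of phospho-STAT3 reads in the Maf window. In the Il10 window the shares were 2.49%, 3.84% and 4.60%, and over the genome 3.97%, 3.90% and 4.58%. The STAT3-deficient share in the Il10 window had an exact 95% interval of 1.60 to 3.68%, below its genome share. The intervals of all the other window shares included the genome share of their library. How many windows of the genome differ in this way was not determined. At a looser Poisson p under 1e-06, 2 further Il10 sites appeared, at 32.1 and 14.05 kb before the start, with 15 and 17 reads.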
